A study of Homo sapiens with 18 samples.

Results

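The 9 negative control (nc) libraries of the series, from 18 libraries in all, were used to compare the unperturbed mRNA profile of EBC-1 with those of PC-9 and HCC827. They were chosen by their labels as carrying a negative control shRNA, with 3 libraries for each cell line, and the 9 libraries of SYK knockdown (shSYK) cells were set aside. The 3 lines are established human lung cancer lines. EBC-1 carries an amplification of MET and is listed by the study as squamous cell lung cancer, whereas PC-9 and HCC827 both carry an EGFR exon 19 deletion. The sequence and delivery of the control shRNA are not given in the sources used here. RNA was extracted with TRIzol and sequenced on an Illumina system. The study itself compared shSYK with nc within each line, and the question taken up here is which genes set EBC-1 apart in the same direction from both EGFR-mutant lines before any knockdown.

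MET encodes the receptor for hepatocyte growth factor and EGFR the receptor for epidermal growth factor, and both signal through the RAS and ERK cascade. Amplification places extra copies of a chromosome segment in the cell, so that neighbouring genes can be carried along with the driver. Exon 19 deletions of EGFR give a receptor that is active without ligand. SYK is a cytoplasmic tyrosine kinase best known from immune receptor signalling.

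EBC-1 was the only line with MET amplification, its libraries stand in a table of their own, and every comparison with it uses the same 3 EBC-1 libraries. Driver alteration, histology, the history of the line, and the preparation of its libraries therefore cannot be told apart, and p-values measure the spread between libraries of a line. The sources used here do not say whether the 3 libraries of a line came from separate cultures. The nc libraries held 7920099 to 14091158 reads on genes. Between 22635 and 23528 genes had at least 1 read in the EBC-1 libraries, against 20503 to 23160 in PC-9 and 19866 to 21458 in HCC827. Reads on mitochondrial genes made up 1.99% to 3.28%. Levels are given as FPKM rescaled so that each library sums to 1e+06 (rescaled FPKM), and differences as EBC-1 minus the other line in log2(rescaled FPKM + 1), which understates the change of genes with low values. A gene was called where the limma test gave a Benjamini-Hochberg adjusted p under 0.05 and a difference of at least 1.

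EBC-1 stood apart mostly through genes that were higher, although a higher level per cell and more cells with the transcript cannot be told apart in bulk RNA. Of 17001 genes tested, 3812 were higher in EBC-1 than in PC-9 (22.4%) and 2516 were lower (14.8%). Against HCC827, 4414 were higher (26%) and 1907 lower (11.2%). In both comparisons together, 2406 genes were higher than in PC-9 and in HCC827 (14.2% of genes tested) and 877 were lower than in both (5.16%). A difference of at least 2 in both comparisons was reached by 619 higher genes (3.64%) and 199 lower genes (1.17%). When PC-9 was taken as the line set apart, 2199 genes (12.9%) differed from the other two lines in the same direction, and with HCC827 in that place 2213 (13%), against 3283 (19.3%) for EBC-1. All 3 EBC-1 libraries lay above the other 6 for 29.9% of the genes tested and below them for 14.6%. The balance of higher and lower calls depended on scaling. Higher genes were 73.3% of the shared calls on the rescaled values, 59.1% with median-of-ratios scaling, 56.5% with quantile normalization, 59.9% with limma-voom on recovered reads and 57.3% on the FPKM as deposited. The median difference over all genes tested was 0.19 from PC-9 and 0.33 from HCC827 on the rescaled values, and 0.032 and 0.05 with median-of-ratios scaling.

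The genes higher in EBC-1 than in both lines had a median difference of 1.75 from PC-9 and 1.82 from HCC827, and their median levels were 18.9 rescaled FPKM in EBC-1, against 3.51 in PC-9 and 3.07 in HCC827. For 259 of them, PC-9 and HCC827 each had 3 reads or fewer in their 3 libraries together. The genes lower in EBC-1 had median levels of 3.48 in EBC-1, against 21.6 in PC-9 and 20.2 in HCC827, and 147 of them had 3 reads or fewer in EBC-1. Protein-coding genes made up 65.5% of the higher genes and 77.3% of the lower genes, against 74.7% of all genes tested. The higher genes also had a median GC content of 54.1%, against 48.9% over all genes tested and 48.4% in the lower genes. Once each library had been corrected for gene length and GC, 2263 genes were called higher and 835 lower, of which 1958 and 714 were among the calls above.

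MET, the amplified gene of EBC-1, was highest in that line and lowest in PC-9. MET (ENSG00000105976, chromosome 7, 116672390 to 116798386 of GRCh38) was at 1576, 1988 and 1563 rescaled FPKM in the EBC-1 libraries. It was at 23.1, 45.6 and 34.95 in PC-9 and at 238, 251 and 235 in HCC827. The 3 lines did not overlap, and HCC827 lay between the other lines. The mean of EBC-1 (1709 ± 242, SD, n = 3) was 49.4-fold that of PC-9 (34.6 ± 11.2) and 7.08-fold that of HCC827 (241 ± 8.38). The fitted differences were 5.63 (standard error 0.21, limma adjusted p = 4.83e-08) from PC-9 and 2.81 (0.21, adjusted p = 3.2e-06) from HCC827.

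EGFR (ENSG00000146648, chromosome 7, 55019021 to 55211628) showed the opposite order. Its level was 54.4, 64.98 and 49.3 in EBC-1, against 178, 317 and 229 in PC-9 and 852, 912 and 709 in HCC827. Again no library of one line overlapped with another line, and HCC827 was highest. The means of PC-9 and HCC827 were 4.29 and 14.7 times that of EBC-1, with differences of -2.05 (standard error 0.20, limma adjusted p = 1.89e-05) from PC-9 and -3.85 (0.20, adjusted p = 3.47e-07) from HCC827. ERBB2, the EGFR relative that has no known ligand of its own, was at 68.5 ± 7.23, 71.8 ± 8.74 and 74.7 ± 1.92 in EBC-1, PC-9 and HCC827 (SD, n = 3 each), and its differences of -0.066 and -0.13 did not pass the test (limma adjusted p = 0.602 and 0.307).

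SYK (ENSG00000165025, chromosome 9, 90801787 to 90898549) was at 54.7, 48.8 and 51.5 in EBC-1, against 21.4, 21.98 and 20.5 in PC-9 and 26.1, 25.3 and 27.5 in HCC827. Every EBC-1 library was above every library of the other lines. The difference was 1.24 (standard error 0.074, limma adjusted p = 8.4e-07) from PC-9 and 0.95 (0.074, adjusted p = 4.69e-06) from HCC827, so SYK was called against PC-9 and fell just short of the minimum difference of 1 against HCC827. The plot of MET, EGFR, ERBB2 and SYK by library shows these 4 genes together.

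The genes next to MET were higher in EBC-1 as a group. Within 0.5 Mb of the start of MET, 10 of the 11 other genes tested were higher in EBC-1 than in both lines (against 14.2% of all genes tested), with a median difference of 3.09 from PC-9 and 2.60 from HCC827. CAV1 and CAV2, which encode the coat proteins of caveolae, were at 1239 against 89.02 and 187 and 473 against 26.8 and 67.9 rescaled FPKM in EBC-1 against PC-9 and HCC827. TES, which encodes a focal adhesion protein, was at 563, 673 and 520 in EBC-1, against 47.3, 65.1 and 57.9 in PC-9 and 63.3, 67.6 and 63.03 in HCC827. CAPZA2, an actin capping subunit, was at 129.9 against 22.96 and 22.9, and ST7 was at 29.8 against 2.64 and 4.86. The libraries of EBC-1 lay above the other 6 for each of these 5 genes. The remaining called neighbours were 5 noncoding transcripts (ST7-AS1, AC006159.1, AC002066.1, AC073130.2 and AC073130.3) at means of 4.55 to 16.1 in EBC-1. Use of strand in the counting is not given in the sources used here, so antisense transcripts cannot be told apart from overlapping genes. LINC01510 was the neighbour that was not called, with differences of 1.63 and 0.89 on 26 reads in EBC-1.

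Farther out, 7 of 14 genes between 0.5 and 5 Mb from MET were higher in EBC-1 than in both lines and none was lower, with medians of 1.38 and 1.59. DOCK4, which activates small GTPases, started at -4946 kb from the start of MET and was at 33.7 against 0.281 and 1.74, while LSM8, a splicing factor subunit, was 1512 kb downstream and at 51.4 against 13.2 and 10.2. Beyond 4 Mb downstream the differences were mixed. TSPAN12 differed by -0.21 and -0.88 and was not called, while CPED1 was at 3.01 against 0.138 and 0.0340 and was called higher. DNA copy number was not analysed here.

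Around EGFR, the line that stood out was HCC827. Of 6 other genes within 0.5 Mb, 1 (VOPP1) was lower in EBC-1 than in both lines, and the medians were -0.63 from PC-9 and -3.03 from HCC827. SEC61G, a subunit of the ER translocation channel, was at 202 against 402 and 6034 in EBC-1, PC-9 and HCC827, LANCL2 was at 12.6 against 19.2 and 419, and VOPP1 was at 113 against 282 and 1433. These 3 genes were looked up after their values were seen. Of 18 genes between 0.5 and 5 Mb, 4 were lower than in both lines, among them CHCHD2, a mitochondrial protein gene, at 880 against 3294 and 3978, and CCT6A, a chaperonin subunit gene, at 223 against 639.6 and 1116, and 2 were higher.

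**Figure D1:**
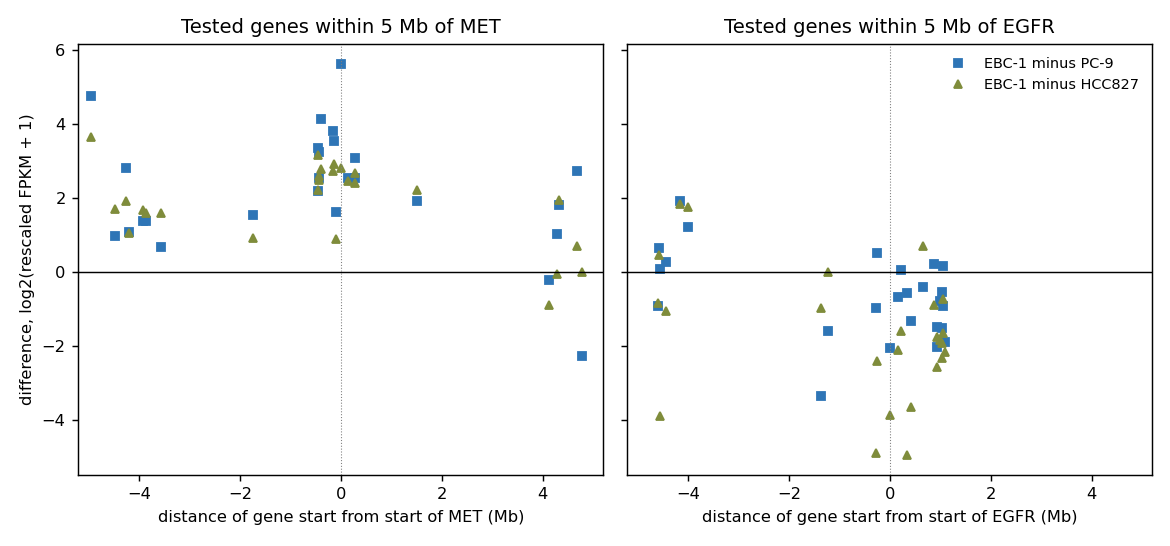
Difference in log2(rescaled FPKM + 1) of each tested gene against the distance of its start from that of MET (left) or EGFR (right) in Mb, with squares for EBC-1 minus PC-9 and triangles for EBC-1 minus HCC827. All genes within 0.5 Mb of MET are above 0 in both comparisons, and the lowest values near EGFR are those against HCC827.

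CD74, BEX1 and MT1E led the protein-coding genes that were higher in EBC-1 than in both lines. The 15 protein-coding genes with the largest smaller-of-both differences ran from CD74 to DERL3, with CDH2 as the next gene after the last named (5.22 for DERL3 and 5.15 for CDH2). CD74, the invariant chain that escorts MHC class II molecules, was at 887, 853 and 918 rescaled FPKM in EBC-1, against 1.66, 1.47 and 0.9997 in PC-9 and 0.501, 0.882 and 1.23 in HCC827. Its mean was 642-fold that of PC-9 and 1016-fold that of HCC827. THBD, which encodes the anticoagulant receptor thrombomodulin, was at 956, 853 and 808 in EBC-1, against 13.1, 16.5 and 17.8 in PC-9 and 14.7, 17.6 and 17.98 in HCC827. The EBC-1 libraries were far above the rest for both genes, and PC-9 and HCC827 overlapped.

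Genes without a read in the other lines give lower bounds, taken against a floor of 3 reads per library. BEX1, an X-linked gene of the nervous system, was at 93.8, 102 and 92.4 in EBC-1 and had no read in any PC-9 or HCC827 library, which made it at least 84.3-fold higher than in PC-9 and at least 90.7-fold higher than in HCC827. NDN, the imprinted gene of necdin, was at 53.6, 52.9 and 61.2 and at 0 in the other 6 libraries (at least 109.7-fold and 118-fold). MT1E, a metallothionein gene with near-identical relatives that may share its reads, was at 86.5, 89.5 and 78.7 and at 0 elsewhere. GALNT9, an enzyme that starts O-linked glycosylation, had a mean of 82.2 in EBC-1, no read in PC-9 and a mean of 0.874 in HCC827. HLA-DRA, the alpha chain of HLA-DR, had a mean of 124, no read in PC-9 and 2.31 in HCC827.

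The other named genes followed the same pattern with reads in each line. FCGBP, a secreted mucin-like protein gene, was at 214 against 0.373 and 1.92 in EBC-1 against PC-9 and HCC827. LAPTM5, a lysosomal membrane protein of blood cells, was at 206 against 2.75 and 0.690. AMH, the hormone that regresses the Müllerian duct, was at 99.8 against 0.714 and 0.804. H2AFY2, which encodes the histone variant macroH2A2, was at 114 against 0.490 and 0.0871. CD40, a receptor of the tumour necrosis factor family, was at 78.7 against 0.0879 and 0.277, NGFR, the low-affinity neurotrophin receptor, at 54.1 against 0.0791 and 0.136, and DERL3, a component of ER-associated degradation, at 62.4 against 0.0280 and 0.687. The EBC-1 libraries did not overlap with the other 6 for these genes, as the naming rule required.

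GSTP1, PLXNB2 and CYBA led the protein-coding genes that were lower in EBC-1 than in both lines. GSTP1, a glutathione S-transferase, was at 2.87, 1.55 and 1.58 in EBC-1, against 2100.3, 1463 and 1635 in PC-9 and 1255, 1207 and 1273 in HCC827. The means of PC-9 and HCC827 were 866 and 622 times that of EBC-1. CYBA, the p22phox subunit of NADPH oxidases, was at 0.625, 0.176 and 0.180 in EBC-1, against 377, 233 and 292 in PC-9 and 834, 753 and 932 in HCC827. The EBC-1 values of CYBA rested on 12 reads over 3 libraries, and those of GSTP1 on 41. S100P, a calcium-binding protein gene, was at 2.32 against 710.4 and 131, CD24, a glycoprotein of the cell surface, at 3.95 against 185 and 200, CEACAM6, a cell adhesion molecule, at 0.0933 against 442 and 54.8, and PDLIM4, an actin-associated protein gene, at 0.587 against 56.01 and 38.8 in EBC-1 against PC-9 and HCC827. IGFBP2, a binding protein of insulin-like growth factors, had 1 read in EBC-1 and means of 68.4 and 79.7 in PC-9 and HCC827. PDLIM4 was the last gene named, with a smaller difference of -4.66, and SGPP2 followed with -4.50.

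Several of these genes had no read in the EBC-1 libraries. PRSS21, the membrane serine protease testisin, was at 198, 156 and 184 in PC-9 and 169, 143 and 162 in HCC827 and at 0 in EBC-1, so it was at least 409-fold and 362-fold higher in those lines. CBLC, a ubiquitin ligase for activated receptor kinases, was at 293, 214 and 251 in PC-9 and 63.6, 64.7 and 76.97 in HCC827 (at least 464-fold and 126-fold higher than EBC-1). PRMT6, an arginine methyltransferase, had means of 45.3 and 70.8 in those lines, FUOM, a fucose mutarotase, 32.3 and 32.6, and APOBEC3B, a cytidine deaminase with close relatives next to it on the chromosome, 479.6 and 27.9. In total, 32 genes, 17 of them protein-coding, had no read in EBC-1 and a mean of at least 5 in both other lines. Conversely, 51 genes, 16 of them protein-coding, had no read in PC-9 and HCC827 and a mean of at least 5 in EBC-1. Among the latter, looked up after their values were seen, were PYCARD, the inflammasome adaptor, at 18.97, and CCL2, a monocyte chemokine, at 9.09.

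**Figure D2:**
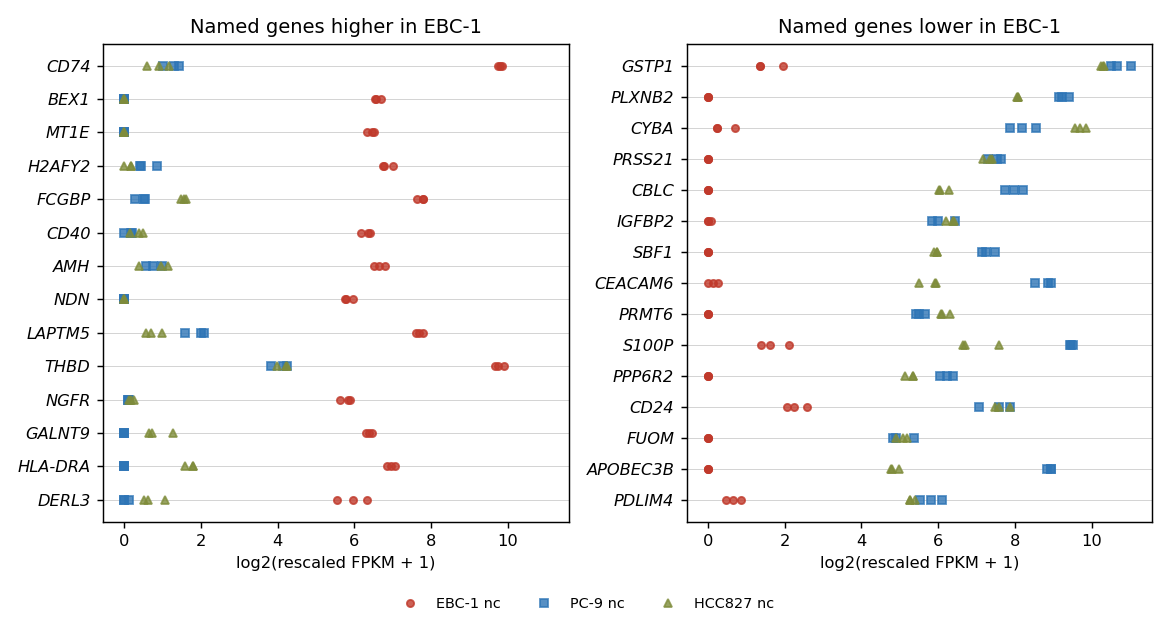
Values of genes named as higher (left) and lower (right) in EBC-1, in log2(rescaled FPKM + 1), with 1 point per library (circles EBC-1, squares PC-9, triangles HCC827). The naming rule required the EBC-1 libraries to stand apart from the other 6 for every gene. Several genes lie at 0 in a whole line.

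PLXNB2, SBF1 and PPP6R2 among the named lower genes are neighbours on chromosome 22. PLXNB2, a semaphorin receptor, was at 677, 569.9 and 598 in PC-9 and 264, 272 and 268 in HCC827, and no EBC-1 library had a read on it. It was thus at least 5184-fold and at least 2259-fold higher in PC-9 and HCC827. SBF1, a phosphatase-like protein gene, had means of 157 and 60.5, and PPP6R2, a regulatory subunit gene of protein phosphatase 6, 73.9 and 37.8. Between the start of MAPK11 and the end of SBF1 (chromosome 22, 50263713 to 50475024, a span of 211 kb), the tables list 7 genes, 5 of which were tested. These 7 genes had no read in the EBC-1 nc libraries, and none in the 3 EBC-1 shSYK libraries, against 59624 reads in PC-9 nc and 28158 in HCC827 nc. On one side, TUBGCP6, a gene of the gamma-tubulin complex, was at 80.7 in EBC-1 against 37.8 and 18.7, and MAPK12, next to MAPK11, at 0.883 against 32.9 and 8.57. On the other side, ADM2 was at 7.19 against 11.7 and 13.3, and LMF2, a lipase maturation factor gene, at 200.4 against 126 and 71.8. MAPK12 still had 88 reads in the EBC-1 nc libraries, so the genes on both sides of the interval were detected.

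Antigen presentation was the list with the highest share of higher genes. Of 21 tested members, 13 were higher in EBC-1 than in both lines (61.9% against 14.2% of all genes tested) and none was lower, and the median differences were 1.94 and 1.78 against 0.19 and 0.33 over all genes tested. HLA-B, a heavy chain of MHC class I, was at 1773, 1628 and 1759.5 in EBC-1, against 96.9, 91.1 and 89.8 in PC-9 and 87.2, 83.1 and 114 in HCC827. HLA-C was at 3647, 3243 and 3736 in EBC-1, against 366, 281 and 314 in PC-9 and 175, 149 and 187 in HCC827. The EBC-1 libraries were above the others for both genes. B2M, the invariant light chain of class I, was at 1469.8 against 326 and 252 (differences of 2.17 and 2.54) and HLA-F at 36.4 against 8.15 and 7.33 (2.03 and 2.17). HLA genes are polymorphic and closely related, so that reads may be split among them or lost, and their levels are uncertain to that extent.

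Members of the class II pathway were among the called genes. Beside CD74 and HLA-DRA, HLA-DRB1 was at 99.1 against 0.0863 and 24.3, HLA-DPB1 at 3.14 against 0 and 0.0476 and HLA-DMB, which helps load peptides, at 3.40 against 0.147 and 1.02. CIITA, the transcriptional coactivator of class II genes, was at 13.2 against 0.519 and 0.707 with differences of 3.23 and 3.06, and NLRC5, its counterpart for class I, at 13.7 against 2.96 and 5.73 with 1.89 and 1.13. TAP1, a peptide transporter subunit, was called with 1.11 and 1.08, whereas TAP2, at 17.96 against 11.7 and 13.8, and the immunoproteasome subunits PSMB8 and PSMB9, at 135 against 131 and 143 and 50.5 against 32.4 and 34.4, were not. HLA-E was at 401 against 346 and 116, with differences of 0.21 and 1.78, and was called against HCC827 and not against PC-9. CD274, which encodes PD-L1, lay between the other lines at 6.59 against 2.08 and 17.3. Markers of immune cells summed to 1.23 to 1.97 rescaled FPKM over 7 genes in the EBC-1 libraries, 1.45 to 3.15 in PC-9 and 1.89 to 4.71 in HCC827. PTPRC, the pan-leukocyte gene, had no read in EBC-1, so the level of class II genes in EBC-1 stood beside immune markers that were near 0.

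Promoters of class II genes are known to carry a Y box, an inverted CCAAT element that is bound by NF-Y. The letters CTGATTGG or their reverse complement CCAATCAG were found in 3.97% of 35116 RefSeq promoters (GRCh38.p14, 250 bases before to 50 bases after a gene start). Of the 23 listed genes, 18 had a promoter in the table and 7 held the letters. Of the 9 called genes with a promoter, 5 held them, namely HLA-B, HLA-C, HLA-F, B2M and HLA-DRB1. These counts take both orientations together and are not counts of Y boxes. The 60-base stretches of 4 of these, on the strand of the gene with the match in capitals, are shown to compare class I, its light chain and class II. HLA-B lies at chr6:31357202-31357261 (minus strand), HLA-F at chr6:29723351-29723410 (plus strand), B2M at chr15:44711439-44711498 (plus strand) and HLA-DRB1 at chr6:32589864-32589923 (minus strand).
HLA-B: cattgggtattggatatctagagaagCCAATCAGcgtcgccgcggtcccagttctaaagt
HLA-F: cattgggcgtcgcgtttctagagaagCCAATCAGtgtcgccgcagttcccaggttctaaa
B2M: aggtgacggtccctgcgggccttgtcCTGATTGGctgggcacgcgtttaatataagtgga
HLA-DRB1: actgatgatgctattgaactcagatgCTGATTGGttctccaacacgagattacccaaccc
The match lay 49 to 57 bases before the gene start in these 4 promoters. B2M and HLA-DRB1 carry the inverted form CTGATTGG on the strand of the gene. HLA-B and HLA-F carry CCAATCAG, with CCAAT in the forward orientation, so the letters in capitals there are not an inverted CCAAT element. HLA-DMA, which also held the letters, was at 12.5 against 10.003 and 4.62 and was not called, so holding the match and being called did not coincide for every gene. A match is a description of the sequence, and binding was not measured.

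Receptor tyrosine kinases moved in both directions. Of 30 tested, 7 were higher in EBC-1 than in both lines (23.3%) and 4 were lower (13.3%), against 14.2% and 5.16% of all genes tested. Their median differences were -0.017 and 0.9996. AXL is a receptor for GAS6 that is linked to drug tolerance. It was at 233, 232 and 240.1 in EBC-1, against 21.04, 20.7 and 22.7 in PC-9 and 2.09, 2.53 and 1.07 in HCC827. The 3 lines did not overlap, and the differences were 3.39 (standard error 0.17, limma adjusted p = 2.92e-07) from PC-9 and 6.39 (0.17, adjusted p = 1.13e-08) from HCC827. Of the ephrin receptors, EPHA2 was at 945 against 269 and 226, EPHB4 at 407 against 61.4 and 96.9 and EPHB2 at 76.6 against 18.5 and 25.6, all called higher. MST1R, the closest relative of MET, was at 99.2 against 46.6 and 41.6 with differences of 1.07 and 1.23. Beside EGFR, the lower receptors were ERBB3 at 17.95 against 56.3 and 39.6, FGFR3 at 1.43 against 10.8 and 31.1 and FGFR4 at 7.21 against 22.7 and 39.7. ERBB3, the kinase-impaired partner of other ERBB receptors, had differences of -1.59 and -1.10, close to the minimum.

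Among 30 tested receptor ligands, 6 were higher (20%) and 2 lower (6.67%), near the shares over all genes tested (14.2% and 5.16%). VEGFA, the main angiogenic factor, was at 284, 270.4 and 258 in EBC-1, against 20.6, 28.04 and 23.5 in PC-9 and 34.2, 41.99 and 34.8 in HCC827. HBEGF, a ligand of EGFR, was at 177, 161 and 161, 21.9, 21.9 and 24.996 and 5.94, 7.02 and 3.30 in the same order. Both were higher in every EBC-1 library than in the other 6. The EGFR ligands AREG and EREG, looked up after their values were seen, were at 299.7 against 2.87 and 348 and 148 against 1.14 and 136. EBC-1 and HCC827 overlapped for both, and every PC-9 library was lower. The ephrin ligands EFNB3 and EFNB2 were at 22.9 against 0.0329 and 3.61 and 65.6 against 25.6 and 25.1, and IGF2 and NRG2 were called at the low levels of 4.44 and 8.45 in EBC-1. PROS1, which encodes protein S, was lower at 0.0395 against 1.87 and 16.3, as was PDGFD at 0.0205 against 4.05 and 1.63. The call of PROS1 was lost on the FPKM as deposited, and that of PDGFD after the correction for gene length and GC.

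Of 20 genes of ERK output and feedback, 4 were higher (20%) and 1 was lower (5%), against 14.2% and 5.16% of all genes tested. The medians were 0.23 and 0.54, against 0.19 and 0.33, so the list as a whole was near the share over all genes. FOSL1, which encodes the AP-1 subunit FRA1 that the study followed downstream of SYK, was at 2192, 1667 and 2089 in EBC-1, against 141, 101 and 118 in PC-9 and 558, 516 and 477 in HCC827. EBC-1 was highest and PC-9 lowest without overlap, and the differences were 4.04 (standard error 0.14, limma adjusted p = 3.21e-08) from PC-9 and 1.93 (0.14, adjusted p = 2.69e-06) from HCC827. SYK and FOSL1 were therefore both highest in EBC-1 among these 3 lines. PHLDA1 was at 301 against 38.5 and 55.6, IER3 at 968 against 237 and 184 and ETV1 at 9.19 against 1.97 and 2.97. The call of ETV1 was lost with quantile normalization and on the FPKM as deposited. The feedback genes DUSP6, at 39.8 against 32.4 and 33.97, SPRY2, at 21.5 against 14.05 and 19.7, and SPRY4, at 13.5 against 11.8 and 6.88, were not called. EGR1, an immediate early transcription factor, was lower at 9.85 against 22.8 and 197.

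The mesenchymal and matrix list had the second highest share of higher genes, while general epithelial markers were called in both directions. Of 28 mesenchymal and matrix genes tested, 10 were higher (35.7%) and 1 was lower (3.57%), against 14.2% and 5.16% of all genes tested. The medians were 0.87 and 1.25. Against PC-9 alone, 13 were higher (46.4% against 22.4% of all genes tested) and 8 were lower (28.6% against 14.8%). Against HCC827 alone, 17 were higher (60.7% against 26%) and 3 were lower (10.7% against 11.2%). COL6A2, at 9.71 against 248 and 1.38, was lower than in PC-9 and higher than in HCC827. CDH2, which encodes N-cadherin, was at 35.96, 39.5 and 32.8 in EBC-1, and PC-9 and HCC827 had 2 reads and 1 read in all. THBS1, a matricellular protein gene, was at 138, 202 and 139 in EBC-1, against 11.96, 14.1 and 14.04 in PC-9 and 14.1, 13.5 and 8.29 in HCC827. The group also held LOXL2 at 298 against 108 and 65.3, LTBP1, a binding protein of latent TGF-beta, at 50.6 against 9.98 and 0.728, and COL5A1 at 19.3 against 1.88 and 0.0577. VIM was called at the low level of 13.4, 13.8 and 12.6 in EBC-1, against 2.82 and 5.25. FN1, which encodes fibronectin, went the other way at 3.97 against 16.8 and 24.9. Fibroblast markers stood at 9.3 to 10.6 rescaled FPKM summed over 6 genes in EBC-1, with COL1A2, COL3A1, DCN and LUM at 0 reads, against 20 to 24.5 in PC-9 and 2.70 to 3.32 in HCC827.

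Of the 30 epithelial marker symbols (31 rows, since MAL2 is listed at 2 gene identifiers), 2 rows were higher (6.45%) and 5 were lower (16.1%), against 14.2% and 5.16% of all genes tested. CDH1, which encodes E-cadherin, was at 456, 510 and 436 in EBC-1, against 125, 137 and 126 in PC-9 and 416, 429 and 372 in HCC827. It was higher than in PC-9 (difference 1.84) and did not pass the test against HCC827 (difference 0.20, limma adjusted p = 0.0547), so EBC-1 held both cadherins. EPCAM, at 233 against 329 and 294, was not called. ST14, which encodes the protease matriptase, was higher at 1579 against 388 and 472. GRHL2, at 61.5 against 28.8 and 28.7, was called with differences of 1.07 and 1.07, and the call was lost with median-of-ratios scaling, quantile normalization, limma-voom, an equal sum over nuclear protein-coding genes or the FPKM as deposited. The keratins KRT18, at 522 against 1977 and 1558, and KRT19, at 2589 against 6688 and 5566, and the transcription factors KLF5, at 29.5 against 77.2 and 66.9, OVOL1, at 4.24 against 28.5 and 11.6, and GRHL1, at 2.04 against 35.5 and 7.84, were lower. The call of KLF5 was lost once each library had been corrected for gene length and GC. The 5 epithelial defining markers summed to 4480 to 5112 in EBC-1, against 9846 to 13684 in PC-9 and 9436 to 9929 in HCC827.

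TP63 was near 0 in all 3 lines, and KRT5 had no read in HCC827 or in EBC-1, which is listed as squamous. Of the 24 genes of the squamous list, 7 had a mean of at least 1 rescaled FPKM in EBC-1 and 8 had no read there. The 24 listed genes summed to 184 to 198 rescaled FPKM in the EBC-1 libraries, against 738 to 794 in PC-9 and 298 to 339 in HCC827. TP63, the master regulator of squamous cells, had 6 reads over the 3 EBC-1 libraries, with a mean of 0.0757. Its reads numbered 16 for PC-9 (mean 0.235) and 57 for HCC827 (mean 0.751). KRT5, the keratin of basal cells, had no read in either EBC-1 or HCC827, against 68.6, 64.2 and 69.2 in PC-9. SOX2, another squamous regulator, was at 35.8 against 0.125 and 64.5 in EBC-1, PC-9 and HCC827. PERP, a desmosome-associated protein gene, was at 81.7 against 275 and 107. SERPINB5, which encodes maspin, was at 39.3 against 28.7 and 6.92, and S100A2 at 24.8 against 12.7 and 78.8. SERPINB5 was thus highest in EBC-1, with a difference of 2.36 from HCC827 and of 0.45 from PC-9, which was not called. Of 12 squamous genes tested, none was higher in EBC-1 than in both lines and 2 were lower (16.7%, against 5.16% of all genes tested). These were KRT15 at 3.94 against 206 and 16.1 and KRT6A at 0 against 2.33 and 35.3. Against PC-9 alone, 7 of the 12 were lower (58.3% against 14.8% of all genes tested) and 2 were higher. Against HCC827 alone, 4 were lower (33.3% against 11.2%) and 1 was higher. The call of KRT6A was lost on the FPKM as deposited. KRT6A has close relatives in the keratin family that may share its reads.

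Of 18 tested genes of lung adenocarcinoma and alveolar cells, 1 was higher (5.56%) and 3 were lower (16.7%), against 14.2% and 5.16% of all genes tested. NKX2-1, the lung lineage factor also called TTF-1, was at 0.248, 0.374 and 0.191 in EBC-1, against 5.02, 7.22 and 6.94 in PC-9 and 148, 167 and 156 in HCC827. Its level in HCC827 was far above those of the other lines. CEACAM6, named above, and MUC1, at 1.71 against 8.60 and 43.3, were the other lower genes. FOXA2, a forkhead factor of foregut endoderm, was at 84.5, 67.9 and 82.2 in EBC-1, against 0.679, 1.56 and 1.22 in PC-9 and 2.76, 2.35 and 3.42 in HCC827, whereas its relative FOXA1 was at 89.6 against 39.3 and 68.9 and was not called. KRT7, a keratin of simple epithelia, was at 2776 against 2888 and 3659 and overlapped between EBC-1 and PC-9. Of 10 tested mucin genes and regulators, 2 were higher (20%) and 4 lower (40%). MUC4 was at 112, 149 and 106 in EBC-1, against 7.11, 12.003 and 9.64 in PC-9 and 12.9, 11.3 and 10.5 in HCC827, while MUC16, at 2.42 against 20.004 and 22.01, MUC5B, at 0.189 against 2.04 and 154, and SPDEF, a factor of goblet cells, at 4.23 against 42.6 and 50.3, were lower. The call of MUC5B was lost on the FPKM as deposited. AGR2 was called higher at 139.6, 274 and 139 in EBC-1 against 49.7 and 79.2, and this call was lost without EBC-1 nc replicate 2 and with median-of-ratios scaling, quantile normalization, limma-voom or the FPKM as deposited.

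Of 24 HOX genes tested, 3 were higher (12.5%) and 2 lower (8.33%), near the shares over all genes tested (14.2% and 5.16%). HOXA5 was at 19.6 against 1.47 and 2.59 and HOXA6 at 20.5 against 1.57 and 2.76, while HOXB7 was at 1.54, 0.388 and 0.989 in EBC-1, against 56.2, 57.3 and 56.9 in PC-9 and 36.3, 33.1 and 37.7 in HCC827. HOXA genes and HOXB genes were thus called in opposite directions, and the count of lower HOX genes was 5 without EBC-1 nc replicate 3 and 4 without PC-9 nc replicate 2. Of 12 cancer-testis antigens tested, none was called in either direction against both lines. Their summed level over 37 genes was 4.65 to 8.91 in EBC-1, 1577 to 1671 in PC-9 and 186 to 220 in HCC827. MAGEA3, which has near-identical relatives, was at 717 in PC-9 and CT83 at 116 in HCC827, and neither had a read in EBC-1. Of 30 interferon-stimulated genes, 1 was higher (3.33%), IFIT2 at 16.4 against 6.51 and 5.01 (a call lost on the FPKM as deposited), and 1 was lower (3.33%), BST2 at 3.22 against 18.6 and 278. The interferon-induced gene ISG15, at 79.04 against 43.2 and 289.7, was highest in HCC827. Line by line, 11 of the 30 interferon genes were higher than in PC-9 (36.7% against 22.4% of all genes tested) and 1 were lower, while 2 were higher and 11 lower than in HCC827 (36.7% lower against 11.2%). The median differences were 0.54 and -0.63 from PC-9 and HCC827, against 0.19 and 0.33 over all genes tested. IFI44 was at 27.2 against 2.36 and 40.02 and SAMD9 at 16.1 against 1.20 and 11.9, so that PC-9 was the low line for these genes, which were picked after their values were seen. Of 15 listed neuroendocrine genes, 3 reached the level for testing. ENO2 was higher at 271 against 33.5 and 87.3, and none was lower than in both lines. The other tested genes did not go with ENO2, since UCHL1 was at 0 against 456 and 0.947 and DDC at 0.207 against 0.138 and 16.9.

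Cell cycle inhibitors and tumour suppressors were called in both directions, while 1 gene of proliferation was called. Of 18 gatekeeper genes, 6 were higher (33.3%) and 3 lower (16.7%), against 14.2% and 5.16% of all genes tested. CDKN2A, which encodes p16 and p14ARF, was at 28.6, 21.1 and 30.4 in EBC-1, against 306, 229 and 267 in PC-9 and 609, 624 and 632 in HCC827. It was lower in every EBC-1 library than in the other 6, with differences of -3.28 and -4.51. CDKN1A, which encodes the kinase inhibitor p21, was higher at 86.8 against 19.4 and 27.1, and CDKN2C at 57.9 against 10.5 and 14.3, CDK6 at 56.2 against 7.78 and 18.4 and E2F1 at 292 against 62.8 and 100.3 were higher too. CCNE1 was lower at 7.76 against 36.2 and 21.03. Of 30 proliferation genes, MCM7 was higher at 1607 against 296 and 526 and none was lower (3.33% and 0%), and MKI67 was at 43.6 ± 7.36, 50.2 ± 13.1 and 44.3 ± 5.85 in EBC-1, PC-9 and HCC827. The count of higher proliferation genes was 3 without EBC-1 nc replicate 2 and 2 without PC-9 nc replicate 1.

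Of 29 tested targets of NRF2, the regulator of the antioxidant response, 3 were higher (10.3%) and 2 lower (6.9%), near the shares over all genes tested (14.2% and 5.16%). Their median differences were -0.48 and 1.12 from PC-9 and HCC827. Line by line, 13 of them were lower than in PC-9 (44.8% against 14.8% of all genes tested) and 16 were higher than in HCC827 (55.2% against 26%). HMOX1, which encodes heme oxygenase, was at 254, 401 and 196 in EBC-1, against 37.6, 28.5 and 32.2 in PC-9 and 11.3, 11.4 and 9.48 in HCC827. SLC7A11, the cystine transporter subunit, was at 58.95 against 14.4 and 4.05 and OSGIN1 at 85.6 against 18.6 and 17.5, while GPX2, at 1.42 against 18.4 and 29.1, and ABCC2, at 2.31 against 17.5 and 46.5, were lower. NQO1, a standard NRF2 target, was at 622 against 697 and 289 and was not called.

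**Figure D3:**
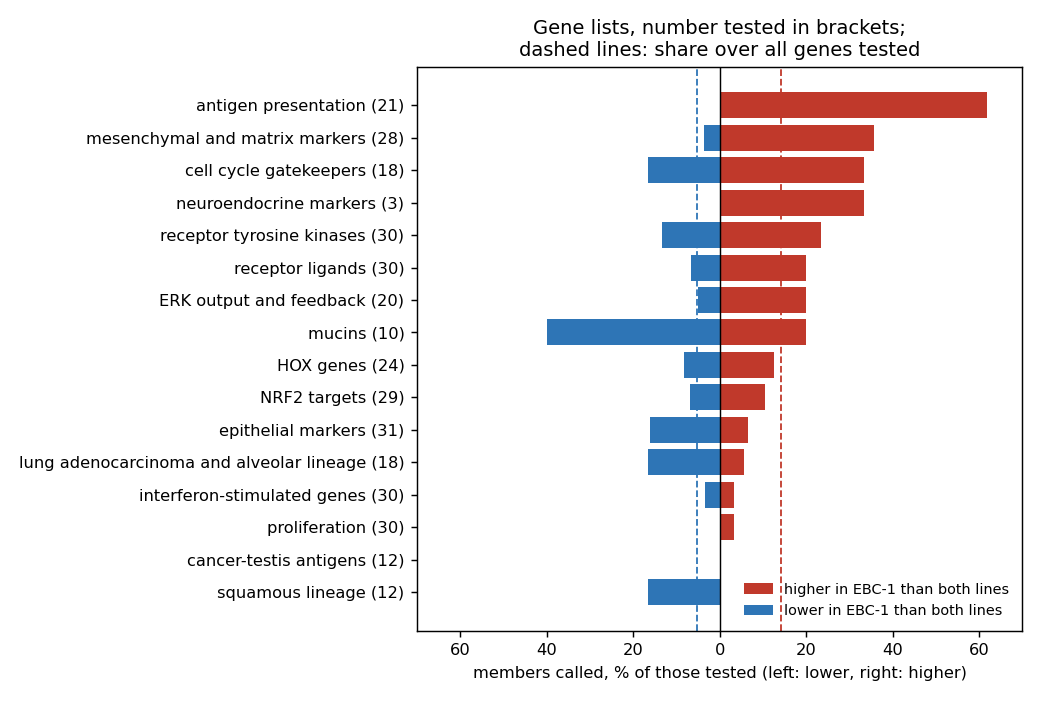
Share of the tested members of 16 gene lists called higher (right, red) or lower (left, blue) in EBC-1 than in both other lines, with the number of tested members in brackets and dashed lines at the share over all genes tested (14.2% and 5.16%). Antigen presentation has the longest bar to the right at 61.9% and mucins the longest to the left at 40%.

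A few single genes known from stress responses were looked up after their values were seen. They come from no fixed list, and no count stands behind them as a group. DDIT3, which encodes the transcription factor CHOP of the unfolded protein response, was at 648, 708 and 519 in EBC-1, against 10.6, 14.3 and 14.1 in PC-9 and 23.3, 28.03 and 35.999 in HCC827. HERPUD1, a gene of ER-associated degradation, was at 468 against 22.2 and 28.2, GDF15, a secreted stress cytokine, at 1868 against 43.8 and 109.8, and HSPA6, a strictly inducible heat shock gene, at 44.7 against 1.58 and 0.497. EBC-1 was above both lines in every library for these 4 genes. In the shSYK libraries of the same lines, the means of DDIT3 were 42.4, 19.9 and 29.1 in EBC-1, PC-9 and HCC827, and those of HSPA6 were 1.46, 0.357 and 0.451. The differences of DDIT3 there were 1.06 and 0.54. The distance of EBC-1 from the other lines in DDIT3 and HSPA6 was thus smaller in the shSYK libraries than in the nc libraries, and this change was not tested here. In the opposite direction, the small heat shock protein gene HSPB1 was lower in EBC-1 at 75.4, 71.8 and 76.4, against 1200.1, 820.2 and 970.1 in PC-9 and 2488, 2339 and 2585 in HCC827, and its means in the shSYK libraries were 56.9, 988 and 2489.

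The shSYK libraries, which were not used to call genes, allow the shared calls to be read a second time in separate libraries of the same lines. Of the 2406 higher genes, 1710 (71.1%) were called higher in EBC-1 shSYK than in both PC-9 shSYK and HCC827 shSYK, and of the 877 lower genes, 610 (69.6%) were called lower. No gene was called in the opposite direction. The median differences there were 1.74 and 1.69 for the higher genes and -1.71 and -1.63 for the lower genes. Of the 2406 and 877 genes, 2276 and 869 were tested in the shSYK libraries. Over all 17172 genes tested there, 2766 were called higher and 828 lower. Of these shSYK calls, 61.8% and 73.7% were among the calls of the nc libraries. Among named genes, HLA-DRA had means of 527, 0 and 2.89 in EBC-1, PC-9 and HCC827 shSYK, GSTP1 of 0.834, 1704 and 914, and MET of 2416, 23.1 and 248. EGR1, OVOL1 and MUC5B were no longer lower than in both lines, since their differences from PC-9 shSYK and HCC827 shSYK were 0.27 and -1.39 for EGR1, -1.87 and 0.25 for OVOL1 and 0.14 and -4.12 for MUC5B. The calls of KRT15, MUC1, FGFR3, ERBB3, EFNB3, PDGFD, KLF5, HMOX1, GPX2, CCNE1 and MUC16 were also lost in the shSYK libraries. These libraries carry the knockdown as well and are not further replicates of the nc cells.

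The called genes were not spread evenly along the chromosomes. On chromosome 7, which carries MET, 244 of 885 genes tested were higher in EBC-1 than in both lines (27.6% against 14.2% of all genes tested), the highest share of any chromosome, followed by chromosome 16 with 23%, 18 with 22.6%, 15 with 21.9% and 11 with 20.6%. The lowest share was 4.4% of 273 genes on chromosome 13. Lower genes were most frequent on chromosome 19 (9.62% of 1206 genes), chromosome 1 (8.31%) and chromosome 2 (7.76%), against 5.16% overall. In 667 runs of 25 consecutive tested genes, the median run held 3 higher genes and 1 lower gene. There were 11 runs with at least 15 higher genes, 5 of them on chromosome 7. The run from THAP5 to TSPAN12 (chromosome 7, 108554543 to 120858402), which spans MET, held 20 higher genes and no lower gene, with medians of 2.52 from PC-9 and 2.40 from HCC827.

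A further stretch of chromosome 7, from ZNF394 to STAG3 (99486519 to 100221488), held 21 higher genes with medians of 2.05 and 1.68, and the next runs, up to ALKBH4 at 102464876, held 19 higher genes each. MCM7, the proliferation gene called above, lies in this part of the chromosome. On chromosome 15, the run from PDIA3P2 to SORD (43649123 to 45077185), where B2M lies, held 21 higher genes and 1 lower gene, with medians of 1.94 and 2.11. On chromosome 19, lower genes lay together in the run from NWD1 to AC010618.3 (16719976 to 17511889), with 12 lower genes and medians of -1.64 and -1.41. Of all runs, 98 held no higher gene and 244 no lower gene. Neighbouring genes are not independent of each other, and no test was made of these counts.

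**Figure D4:**
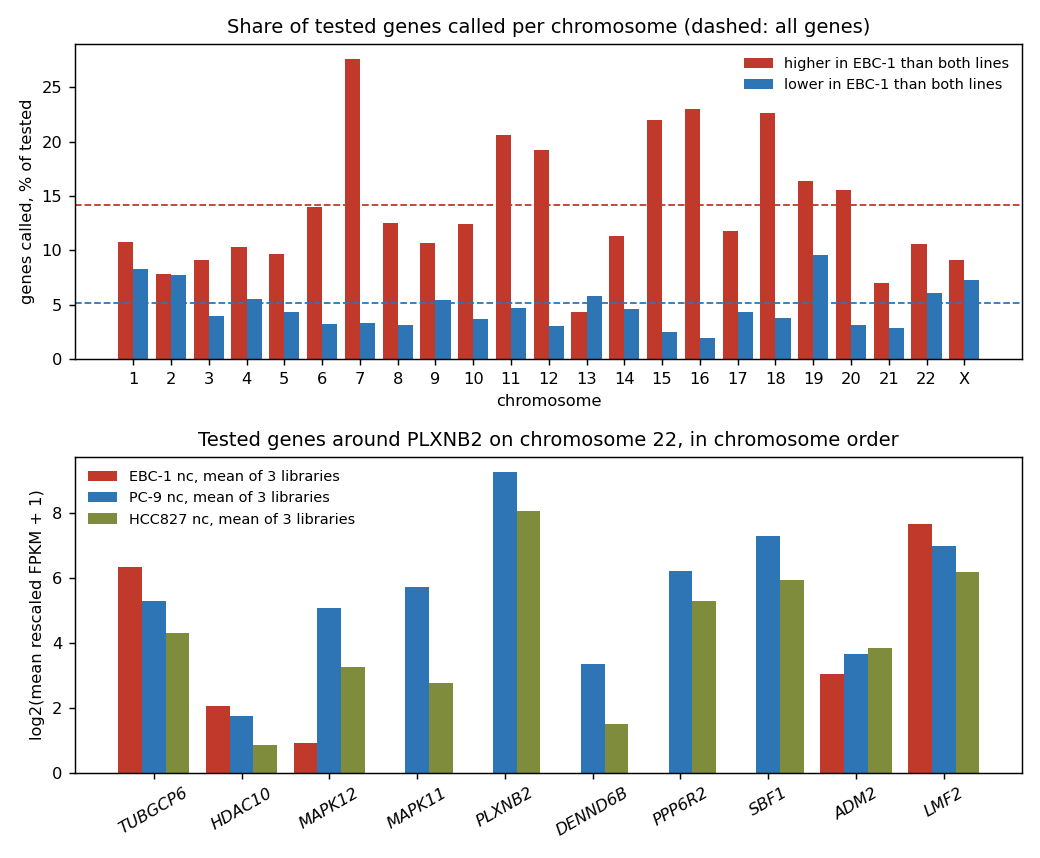
Top, share of tested genes on each chromosome called higher (red) or lower (blue) in EBC-1 than in both lines, with dashed lines for all genes tested. Bottom, log2 of the mean rescaled FPKM + 1 of the 3 nc libraries of each line for tested genes around PLXNB2, where EBC-1 has no bar from MAPK11 to SBF1 and the tallest bars of the 3 lines at TUBGCP6 and LMF2.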

How the data were processed

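RNA from 3 cell lines was sequenced with 3 libraries per line and arm. The authors deposited FPKM values (fragments per kilobase of gene and per set number of fragments) in 3 tables, 1 per line, made per the labels with CASAVA, HISAT2 and a human genome build named as GRCh38 or hg38 beside hg19 and GRCh37. The counter and the denominator of the FPKM are not given in the sources used here. FPKM multiplied by gene length gave whole reads (within 0.05) for 100% of values, which gave 7920099 to 14091158 reads on genes in the 9 nc libraries. Counting error is therefore small for most named genes and limits those with few reads.

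Tables were joined by gene identifier, and each library was rescaled to a sum of 1e+06. Testing covered genes whose mean over the 9 libraries reached 1, on log2(value + 1), with limma 3.58.1 in R 4.3.3 (moderated statistics with a variance trend, Benjamini-Hochberg adjustment over 17001 genes), after the code had been tested on simulated data. Calls needed an adjusted p under 0.05 and a difference of at least 1. Since the tables were deposited separately, levels across lines rest on this rescaling. The text names the 15 protein-coding genes with the largest smaller difference per direction (libraries not overlapping, a mean of at least 5 in the higher line or lines), up to 4 called genes per list and direction, and genes within 1 Mb of MET. Others are named as further list members or were chosen after their values were seen, namely DDIT3, HERPUD1, GDF15, HSPA6, HSPB1, PYCARD, CCL2, MAPK12, SEC61G, LANCL2, VOPP1 and the genes given to complete a list (among them ERBB2, CDH1, VIM, CDKN2A, NKX2-1, HOXB7 and MCM7). Members and lists were chosen with earlier results of these data known. Counts and plots were made with pandas 2.3.3, matplotlib 3.10.9 and numpy 2.4.6 under Python 3.11.15. Gene positions were those deposited with the FPKM values. GENCODE release 44 gave GC content and a check of these positions, and RefSeq (GRCh38.p14) the promoters. In all, 23 settings were tried, which changed scaling, filter, pseudocount, thresholds, test, libraries or the replicate block. Some genes that these rules select are not reported here.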

Additional observations from a re-analysis of the deposited data

How the results depend on the processing

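Each line stands in a table of its own, so scaling between lines is the main limit, and with 1 MET-amplified line the line and its alteration cannot be told apart. Genes with few reads in a line are limited by depth. Leaving out 1 library at a time gave 6111 to 6356 calls against PC-9, 6058 to 6417 against HCC827, 2173 to 2503 genes higher and 845 to 907 lower than in both lines. The range was 5.38 to 5.85 and 2.70 to 2.87 for MET against PC-9 and HCC827, and -2.25 to -1.84 and -3.96 to -3.76 for EGFR. For the median within 5 Mb it was 2.12 to 2.62 and 2.01 to 2.24 around MET, and -0.81 to -0.38 and -1.84 to -1.67 around EGFR, where -0.38 came without PC-9 nc replicate 2.

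The calls of EBC-1 against PC-9 (6328), of EBC-1 against HCC827 (6321) and of genes higher than in both (2406) numbered 3769, 3717 and 1012 on the FPKM as deposited, 4135, 4094 and 1483 with a filter at a mean of 5, 11041, 11053 and 4689 by adjusted p alone, and 2060, 2115 and 619 at a difference of at least 2. Fewer genes were tested in 2 of these settings, 12702 on the FPKM as deposited and 11258 with the filter at 5, against 17001. Genes lower than in both (877) numbered 1445 with limma-voom, 2255 by adjusted p alone and 199 at a difference of at least 2.

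The median within 5 Mb of MET, with MET included, was 2.36 from PC-9 and 2.08 from HCC827. It was 2.12 and 1.66 as deposited, 2.77 and 2.31 with the filter at 5, 1.04 and 0.98 with no filter, 3.15 and 2.40 with a pseudocount of 0.1, 2.17 and 1.76 with quantile normalization, 3.00 from PC-9 with limma-voom and 1.91 from HCC827 with median of ratios. For the neighbourhood of EGFR, median against PC-9, it was -0.68, and for the neighbourhood of EGFR, median against HCC827, it was -1.76. These were -0.055 and -0.60 with no filter, -0.95 and -2.09 with limma-voom, and from HCC827 -2.32 with the filter at 5, -2.08 with median of ratios and -2.18 with a pseudocount of 0.1. The cause of these shifts was not tested. In the shSYK libraries EGR1 (0.27), OVOL1 (0.25) and MUC5B (0.14) changed the sign of 1 difference.

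Replicate numbers were shared between lines. Deviations of same-numbered libraries correlated at -0.0282 to 0.2384 and those of other pairs at -0.2508 to 0.1476. Of 18 comparisons, 9 were best with their own number. Whether same-numbered libraries share more than a number cannot be told from these values. With the replicate block, 2422 genes were higher and 877 lower than in both lines, with 6354 and 6350 calls against PC-9 and HCC827.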
